A study of Mus musculus with 4 samples.

Results

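Transforming growth factor-β (TGF-β) and bone morphogenetic protein (BMP) signaling was examined at the level of its transcripts in fibroblasts with and without an autosomal *Xist* transgene. The gene set was fixed by symbol and holds 48 genes, which are 48 of the 23924 genes in the expression matrix: 11 ligands, 11 receptors and co-receptors, 7 secreted antagonists, 4 latent TGF-β binding proteins, 8 SMADs, 3 regulators of SMADs and 4 *Id* genes. Of these, 47 were above 0 in at least 1 library, and 41 were expressed highly enough to be tested, at a mean of at least 0.5 FPKM (fragments per kilobase of transcript, which sets a level relative to gene length and sequencing depth). The 7 that were not tested were *Bmp2*, *Bmp4*, *Bmp6*, *Gdf5*, *Gdf10*, *Acvr2b* and *Chrd*.

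RNA was sequenced from 2 wildtype (WT) and 2 transgenic (TG) libraries of tail tip fibroblasts from male mice. TG cells were Tg2087/+, hemizygous for an insertion on an autosome that carries the X-inactivation center with *Xist* in 2 copies at 1 locus of the C57BL/6J-TgBAC8-2087 line. WT cells were from +/+ male littermates. Cells of both genotypes had been immortalized with SV40 large T antigen and were tetraploid, so they are transformed lines and not primary skin cells. The sources used here do not give the age of the animals or state if both libraries of a genotype stem from separate animals or cultures, so the p-values measure the spread between these libraries, which may be technical. With 2 libraries against 2, an exact permutation test of a single gene cannot give a two-sided p below 0.333, so limma over all tested genes was used, with Benjamini-Hochberg adjustment.

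TGF-β and BMP ligands are secreted dimers that bring together type I and type II receptor kinases on the cell surface. TGF-β is released in a latent complex that is held in the extracellular matrix, and in fibroblasts it is best known for driving collagen, contractile and matrix genes. Activated receptors phosphorylate SMAD2 and SMAD3 on the TGF-β and activin side, or SMAD1, SMAD5 and SMAD9 on the BMP side, and these enter the nucleus with SMAD4. The *Id* genes are classical direct targets of the BMP side and encode inhibitors of basic helix-loop-helix (bHLH) transcription factors. Endoglin (*Eng*) is a co-receptor that binds ligand together with the receptor kinases and is best known from the endothelium.

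The libraries held 9465712 to 14639946 reads, which were worked out from the steps of the FPKM values, and the deepest (WT 2) held 1.55 times as many as the shallowest (WT 1). *Xist* was at 0 FPKM in WT 1 and 0.108 in WT 2, against 2.31 in TG 1 and 2.28 in TG 2, which fits the genotypes on the labels. A gene was called where its adjusted p was under 0.01 and its log2 fold change at least 1 in size, on the log2(FPKM + 0.5) scale, which understates differences of low genes. *Xist* itself just missed this rule in limma (log2 fold change 2.34, adjusted p = 0.0112). It was called in limma voom on the reads (adjusted p = 2.46e-04). Over 11524 tested genes limma called 54 lower and 70 higher in TG (55 and 47 after quantile normalization). The 12 fibroblast markers summed to 5759 to 6694 FPKM, carried by *Vim*, *S100a4*, *Col1a1*, *Thy1*, *P4hb* and *Col1a2*, while *Lum* was at 0 throughout, *Dcn* and *Fap* were at 0 in 2 or more libraries, and *Pdgfra* was at 0.0999 and 0.307 FPKM in WT and 0.823 and 1.13 in TG. Of 12 endothelial markers, *Tie1*, *Emcn*, *Cldn5* and *Sox18* were at 0 in all 4 libraries and only *Egfl7* had a mean of at least 0.5 FPKM. Of 11 smooth muscle and pericyte markers, *Kcnj8* and *Abcc9* were at 0 and *Myh11* and *Des* were below 0.5 FPKM in every library. Their sum was 8717 and 8966 FPKM in WT and 4088 and 4774 in TG, nearly all of it from *Acta2*, *Tagln* and *Cnn1*. In the other lists some defining markers were at 0 throughout (*Krt5* of keratinocytes, *Ptprc* of macrophages, *Myod1* of skeletal muscle, *Sox10* of Schwann cells, *Adipoq* of adipocytes) and single markers were not. These included *Krt10* at 1.40 to 2.45 FPKM, *Cd68* at 5.12 to 12.1, *Acta1* at 5.07 to 11.1 and *Fabp4* at 1.67 to 4.77. The Schwann cell and melanocyte list summed to 0.559 and 0.732 FPKM in WT and 2.72 and 2.94 in TG, most of it *Mitf*. The chondrocyte and osteoblast list summed to 9.61 and 11.3 FPKM in WT and 12.6 and 15.7 in TG, with *Sox9* called higher (log2 fold change 1.68, adjusted p = 0.00671 in limma). In bulk RNA, fewer cells of a type and less RNA per cell cannot be told apart.

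Across the pathway, *Eng* fell and *Id1* and *Id2* rose in TG, and these were the 3 members called. The single call lower in 41 tested members stands against 0.469% of all tested genes called lower. The 2 calls higher stand against 0.607% called higher. At an adjusted p under 0.05 with no limit on size, *Tgfb2* joined *Eng* on the lower side (1.54% of all genes) and *Tgfb1* joined *Id1* and *Id2* on the higher side (2.59%). In 15 members both TG libraries lay below both WT libraries, which is 36.6% of those tested against 20.3% of all genes. In 8 members both lay above, which is 19.5% against 30.2%, and the groups overlapped in the remaining 18. On the recovered reads limma voom called the same 3 members and *Tgfb2*, where 1.34% of all genes were called lower and 1.08% higher. The median log2 fold change was −0.11 over the tested members and 0.07 over all tested genes.

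**Figure D1:**
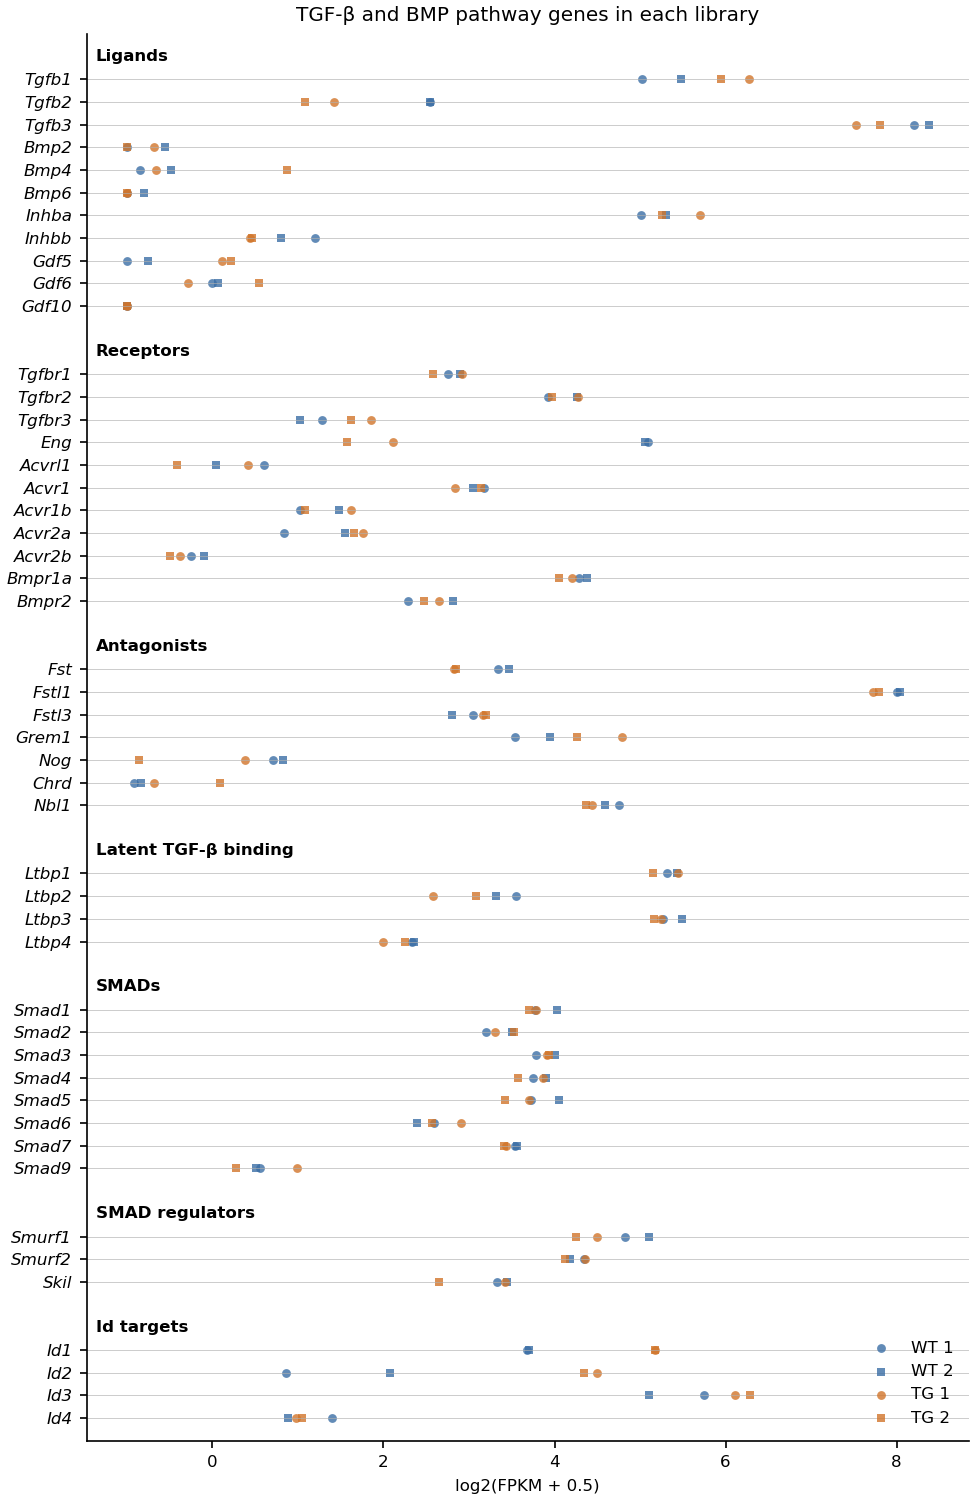
Level of each of the 48 pathway genes in every library, as log2(FPKM + 0.5) on the horizontal axis, grouped by role, with WT in blue, TG in orange, circles for library 1 and squares for library 2. *Eng* separates furthest to the left in TG (3.82 and 2.48 FPKM against 33.8 and 32.7) and *Id2* furthest to the right (22.0 and 19.8 against 1.32 and 3.71), while most SMADs and receptors lie on top of each other.

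The DNA just before the start of the genes with the largest differences is shown so that the results can be set beside sequence, for *Eng*, *Tgfb2* and *Id2* (RefSeq promoters of build GRCm38.p6, the 250 bases before the annotated start, 5′ to 3′ on the strand of the gene). All 48 members matched RefSeq by symbol, and a promoter was read for 35 of them, with no entry for *Id1*. Capitals mark CAGAC, the core of the element bound by SMAD3 and SMAD4, or GGCGCC, a GC-rich core reported for BMP-side SMADs, on either strand. *Eng* (chr2:32646345-32646594, plus strand) has CAGAC starting 214 and 127 bases before the start, the second on the opposite strand. *Tgfb2* (chr1:186705990-186706239, minus strand) has it 221 and 204 bases before the start. *Id2* (chr12:25096093-25096342, minus strand) has no CAGAC in this window and has GGCGCC 231 bases before the start. Among members not printed, *Id3* has CAGAC 167 and 68 bases before the start and no GGCGCC. *Id4* has GGCGCC and no CAGAC, and *Tgfb1* has neither.
Eng: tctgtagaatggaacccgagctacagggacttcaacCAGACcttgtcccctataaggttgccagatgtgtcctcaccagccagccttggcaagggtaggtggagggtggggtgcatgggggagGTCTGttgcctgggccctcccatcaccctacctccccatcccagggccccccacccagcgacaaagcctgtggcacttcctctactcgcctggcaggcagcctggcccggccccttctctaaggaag
Tgfb2: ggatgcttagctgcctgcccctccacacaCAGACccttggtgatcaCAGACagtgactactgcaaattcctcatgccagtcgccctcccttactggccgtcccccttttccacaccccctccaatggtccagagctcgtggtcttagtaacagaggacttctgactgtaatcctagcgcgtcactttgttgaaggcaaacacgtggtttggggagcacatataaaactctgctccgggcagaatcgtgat
Id2: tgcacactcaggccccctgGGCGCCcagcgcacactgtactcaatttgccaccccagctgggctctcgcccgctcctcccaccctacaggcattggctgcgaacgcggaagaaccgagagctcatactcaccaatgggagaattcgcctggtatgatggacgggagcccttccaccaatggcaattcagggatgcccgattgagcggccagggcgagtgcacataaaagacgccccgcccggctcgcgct

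The 35 members had 41 promoters in the table. CAGAC was found in 18 of the 41 (43.9%) and in 42.2% of 32851 mouse promoters of the same length. GGCGCC was found in 13 of the 41 (31.7%) and in 9.59% of all promoters. GGGCGG, another GC-rich sequence, was in 80.5% of the 41 and in 32.7% of all. CANNTG, where N is any base, was in 41.5% and in 66.2%. The part of GC content in these shares was not tested. GTCTAGAC, a palindrome of GTCT and AGAC that does not hold the full CAGAC, was in none of the 41 and in 0.167% of all. The counts for members do not cover *Smad2*, *Smad4* and *Smad7* on Chr 18, while the set of all promoters was not limited by chromosome. A match only describes the letters in the window, and the absence of one says nothing of the factor.

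The 3 TGF-β ligands differed in direction. *Tgfb3* was the most abundant ligand, with 295 and 331 FPKM in WT and 184 and 223 in TG. The TG libraries lay below both WT libraries, and the difference was −0.63 on the log2 scale with an adjusted p of 0.0874 in limma. Limma voom gave −0.70 with an adjusted p of 0.00446. *Tgfb3* was called in neither fit, as its difference was under 1 in size. *Tgfb1*, the best-studied isoform in fibrosis, was at 32.0 and 44.1 FPKM in WT and 77.2 and 61.1 in TG. Both TG libraries were higher, although the 2 WT libraries also lay apart, and the mean was 38.1 ± 8.54 FPKM in WT against 69.1 ± 11.4 in TG (SD, n = 2). Its log2 fold change was 0.86 (SE 0.21) with an adjusted p of 0.0487 in limma, past 0.05 but not 0.01. Limma voom gave 0.79 with an adjusted p of 0.00901, and *Tgfb1* was not called there because of the limit on size. *Tgfb2* was at 5.33 FPKM in both WT libraries and at 2.18 and 1.61 in TG, or 255 and 394 reads against 131 and 90. The WT libraries were almost equal and both TG libraries were well below them, with a log2 fold change of −1.30 (SE 0.27) and an adjusted p of 0.0270 in limma. On the recovered reads limma voom called *Tgfb2* lower (log2 fold change −1.56, adjusted p = 8.31e-04).

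The make-up of the TGF-β ligand transcripts followed these values. *Tgfb3* made up 88.8% and 87.0% of the summed FPKM of the 3 genes in WT and 69.8% and 78.0% in TG. *Tgfb1* made up 9.63% and 11.6% in WT and 29.3% and 21.4% in TG. The sum itself was 332 and 381 FPKM in WT and 263 and 285 in TG. *Tgfb3* was 9.22 and 7.52 times as abundant as *Tgfb1* in WT and 2.38 and 3.64 times in TG, so it remained the leading isoform in all 4 libraries.

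**Figure D2:**
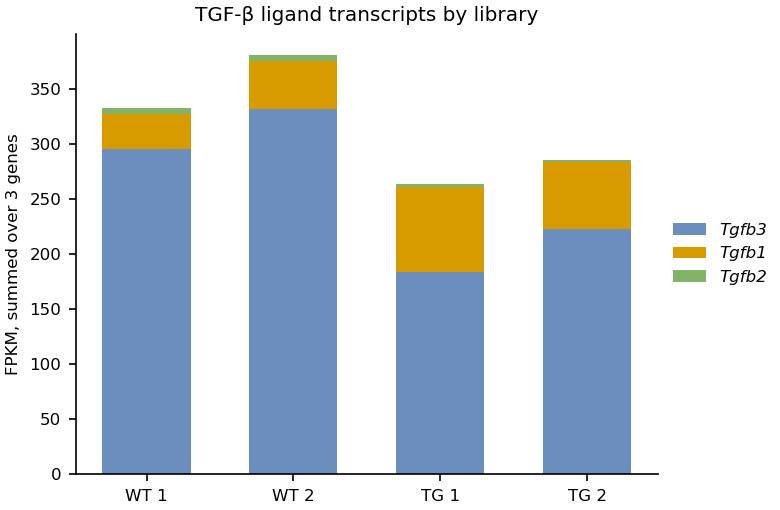
Summed FPKM of *Tgfb1*, *Tgfb2* and *Tgfb3* in each library, stacked by gene on an axis that starts at 0. The *Tgfb1* segment is wider in TG (77.2 and 61.1 FPKM) than in WT (32.0 and 44.1), the *Tgfb3* segment is smaller in TG, and *Tgfb2* is a thin cap in every library.

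Among the activin and BMP-type ligands, only *Inhba* was abundant. *Inhba*, which encodes the subunit of activin A, was at 31.6 and 39.0 FPKM in WT and 51.3 and 37.6 in TG, and the groups overlapped. *Inhbb*, the subunit of activin B, was at 1.80 and 1.25 FPKM in WT and 0.857 and 0.880 in TG, with a log2 difference of −0.55 (adjusted p = 0.454 in limma). *Gdf6*, a BMP-like factor of the joints and skeleton, was between 0.322 and 0.962 FPKM, with the lowest and the highest value both in TG. The order in WT was *Tgfb3* above *Tgfb1* and *Inhba*, which overlapped, then *Tgfb2*, *Inhbb* and *Gdf6*. In TG *Tgfb1* and *Inhba* no longer overlapped, and *Inhbb*, *Bmp4* and *Gdf6* did.

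BMP ligand transcripts were close to the limit of detection. *Bmp2* had 0 and 9 reads in WT and 5 and 0 in TG, and *Bmp6* had 0.0720 FPKM in WT 2 and 0 in the other libraries. *Gdf10* had no reads in any library, and a count of 0 allows up to 3 reads, counting error only. *Bmp4*, an inducer of *Id* genes in many tissues, had 1 and 6 reads in WT and 3 and 28 in TG. The high *Bmp4* value was that of TG 2 alone, and TG 1 lay between the WT libraries. *Gdf5*, a joint-forming factor, had 0 and 3 reads in WT and 15 and 16 in TG, or 0.580 and 0.667 FPKM, and fell below the limit for testing.

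*Eng* was the member with the largest difference among the receptors and in the whole pathway. It was at 33.8 and 32.7 FPKM in WT and 3.82 and 2.48 in TG, from 1094 and 1640 reads in WT and 156 and 94 in TG. The WT libraries were nearly equal and both TG libraries were about an order of magnitude below them, with no overlap. The mean was 33.2 ± 0.734 FPKM in WT and 3.15 ± 0.947 in TG (SD, n = 2), 10.5-fold lower or a reduction of 90.5%. The log2 fold change was −3.23 (95% interval −3.75 to −2.72) with an adjusted p of 8.14e-05 in limma, and −3.48 in limma voom on reads. The adjusted p ranged from 7.43e-11 to 0.0261 over 15 alternatives, and the call at 0.01 was lost without WT 1 (0.0249), without WT 2 (0.0175) and with all genes above 0 in the fit (0.0261), at log2 fold changes of −3.21, −3.25 and −3.23. Endothelial markers other than *Egfl7* summed to 1.73 and 0.486 FPKM in WT and 0.260 and 0.0360 in TG, and of these *Erg* was at 0.446 and 0.288 in WT and 0.0759 and 0 in TG. Their part in the difference of *Eng* was not tested.

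*Eng* lies on Chr 2 (32646595 to 32682669, GRCm38), and its end overlaps *Fpgs* on the opposite strand. The libraries were strand-specific, but the strand setting of the counting is not given in the sources used here, so reads of the overlap may count for either gene. *Fpgs* was at 31.1 and 21.1 FPKM in WT and 30.3 and 27.6 in TG, a log2 difference of 0.17. On the other side *Ak1*, 11.5 kb away, was at 124 and 100.1 FPKM in WT and 95.9 and 115 in TG, with overlapping groups. The next tested genes out, *St6galnac6* and *Cdk9*, had log2 fold changes of 0.37 and 0.01, and none of the 4 neighbours was called.

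Of the 9 tested besides *Eng*, none was called in limma or in limma voom, and none had an unadjusted p under 0.05 in limma, where 6.88% of all genes had one on the lower side and 12.7% on the higher side. Their log2 fold changes ran from −0.32 (*Acvrl1*) to 0.59 (*Tgfbr3*), the lowest adjusted p was 0.316, and their 95% intervals reached from −1.36 to 1.26. *Tgfbr2*, the type II receptor for TGF-β, was at 14.7 and 18.7 FPKM in WT and 18.8 and 15.2 in TG. Its groups coincided, and the 95% interval of the log2 fold change was −0.44 to 0.50. *Tgfbr1*, the type I receptor, was at 6.26 and 6.95 FPKM in WT and 7.07 and 5.46 in TG, with an interval of −0.60 to 0.44. *Bmpr2*, the main BMP type II receptor, had overlapping groups and an interval of −0.57 to 0.58, and *Bmpr1a*, a BMP type I receptor, was at 19.1 and 20.3 FPKM in WT and 17.9 and 16.1 in TG.

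The co-receptor betaglycan (*Tgfbr3*), which presents TGF-β2 to the signaling receptors, was at 1.92 and 1.53 FPKM in WT and 3.12 and 2.57 in TG. Both TG libraries were higher, but the adjusted p of 0.316 in limma missed the threshold. *Acvrl1* (ALK1), the type I receptor with which endoglin is best known to act, was at 1.02 and 0.526 FPKM in WT and 0.830 and 0.248 in TG, and its groups overlapped. The activin type II receptor *Acvr2a* was at 1.28 and 2.42 FPKM in WT and 2.90 and 2.65 in TG, both above WT, with a log2 difference of 0.52 (adjusted p = 0.434 in limma) that ran from 0.16 to 0.88 without single libraries. The type I receptor *Acvr1b* was at 1.54 and 2.29 FPKM in WT and 2.58 and 1.61 in TG, and its groups overlapped. *Acvr1* (ALK2) was at 6.64 to 8.53 FPKM, and *Acvr2b* was below the limit for testing with 24 to 67 reads.

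In WT *Eng* was the most abundant receptor transcript, above *Bmpr1a* and *Tgfbr2*, with ranges that did not touch. In TG it ranked sixth, below *Bmpr2*, and its range overlapped that of *Tgfbr3*. The ratio of *Eng* to *Tgfbr2* within a library was 2.30 and 1.75 in WT and 0.203 and 0.163 in TG.

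**Figure D3:**
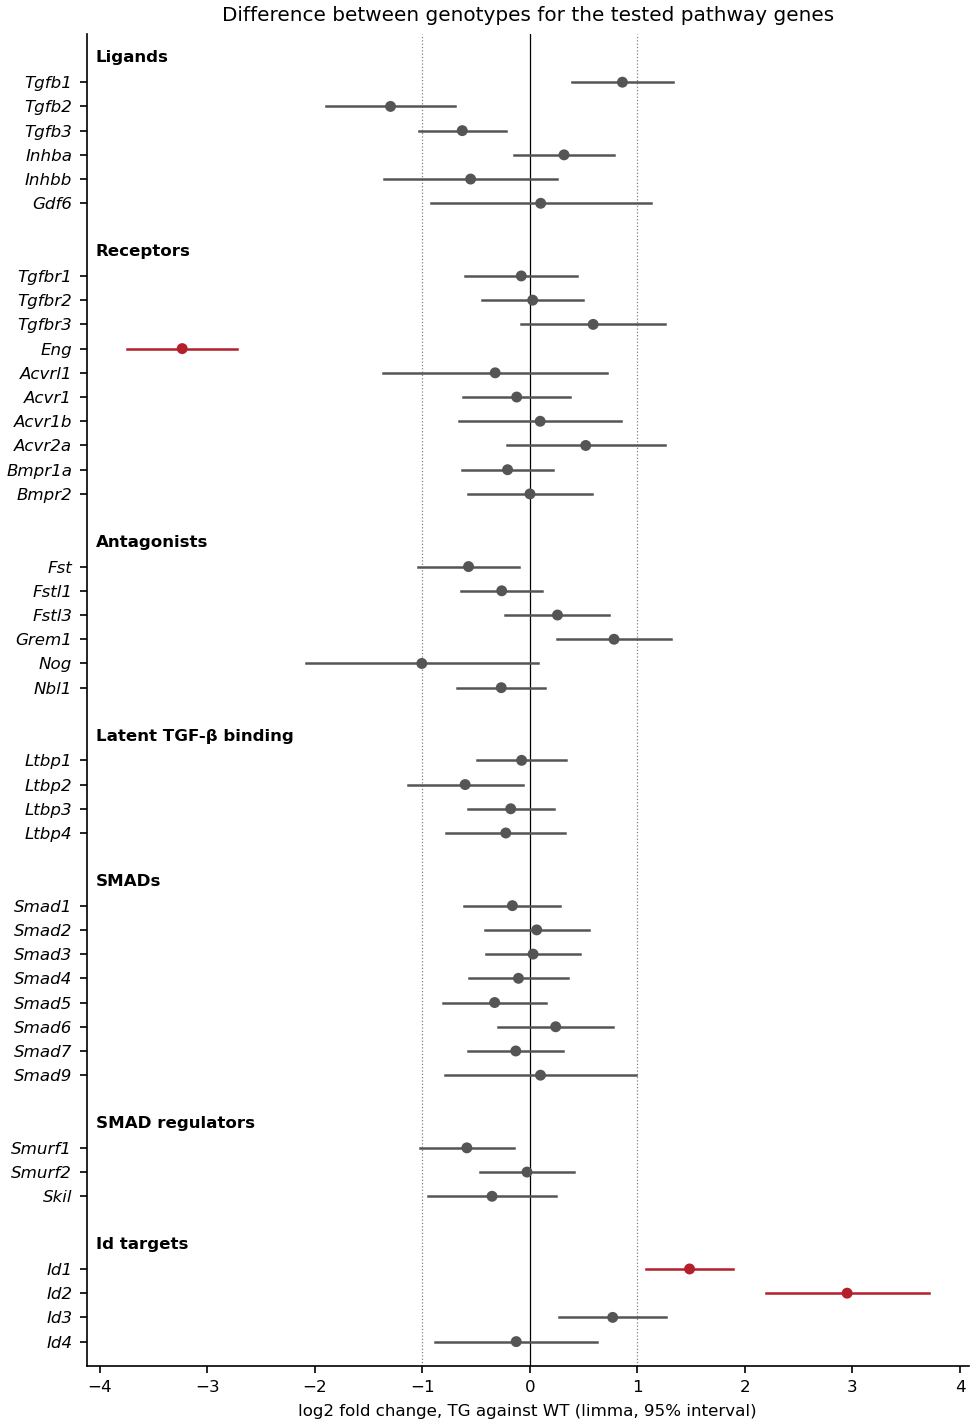
Log2 fold change of TG against WT from limma with its 95% interval for the 41 tested pathway genes, grouped by role, where red marks called genes and the dotted lines a change of 1 in size. *Eng* (−3.23), *Id1* (1.49) and *Id2* (2.95) are the red points, and the intervals of all 8 SMADs include 0.

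None of the secreted antagonists was called. Of the 6 tested, 1 had an unadjusted p under 0.05 in limma on the lower side (*Fst*, 6.88% of all genes) and 1 on the higher side (*Grem1*, 12.7% of all genes). *Fst*, which encodes follistatin and traps activins, was at 9.62 and 10.6 FPKM in WT and 6.59 and 6.70 in TG. The TG libraries lay together below the WT libraries, with a log2 difference of −0.57 (adjusted p = 0.170 in limma). *Grem1*, the BMP antagonist gremlin 1, was at 11.1 and 14.9 FPKM in WT and 27.2 and 18.7 in TG. Both TG libraries were higher but they lay far apart, and the log2 difference of 0.78 had an adjusted p of 0.0987 in limma. *Nog*, the BMP antagonist noggin, was at 1.13 and 1.27 FPKM in WT and 0.804 and 0.0510 in TG. Its low TG mean rested on TG 2, which held 1 read, and the log2 fold change ran from −1.63 to −0.38 when single libraries were left out.

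*Fstl1*, a follistatin-like glycoprotein, was the most abundant antagonist at 256 and 263 FPKM in WT and 211 and 222 in TG, a log2 fold change of −0.26. *Fstl3*, another trap for activins, was at 7.79 and 6.47 FPKM in WT and 8.46 and 8.72 in TG, and *Nbl1*, a BMP antagonist of the DAN family, was at 26.4 and 23.7 in WT and 21.3 and 20.2 in TG. Their adjusted p-values in limma were 0.574 and 0.481. *Chrd*, the BMP antagonist chordin, was not tested and had 1 and 3 reads in WT and 5 and 21 in TG, the highest again in TG 2.

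The latent TGF-β binding proteins, which anchor the latent complex in the matrix, had fitted differences below 0 in TG and none was called, and that of *Ltbp1* ran from −0.22 to 0.07 when single libraries were left out. *Ltbp2*, which binds fibrillin rather than TGF-β itself, had the largest difference in the group. It was at 11.2 and 9.44 FPKM in WT and 5.48 and 7.94 in TG, with a log2 difference of −0.60 (adjusted p = 0.201 in limma and 0.0427 in limma voom). *Ltbp1* at 35.1 to 43.1 FPKM and *Ltbp3* at 35.4 to 44.6 were the most abundant of the 4. *Ltbp4* was at 4.55 and 4.63 FPKM in WT and 3.49 and 4.26 in TG. The unadjusted p in limma was under 0.05 for *Ltbp2* only, where 6.88% of all genes had one on the lower side.

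None of the 8 SMADs was called, and none had an unadjusted p under 0.05 in limma or an adjusted p under 0.05 in limma voom. Their log2 fold changes lay between −0.33 (*Smad5*) and 0.24 (*Smad6*), with adjusted p-values of 0.455 to 0.951 in limma. *Smad3*, which carries the TGF-β signal, was at 13.3 and 15.5 FPKM in WT and 14.5 and 14.8 in TG. The TG values lay inside the WT range, with a 95% interval of −0.41 to 0.47. *Smad2* was at 8.68 to 11.0 FPKM and *Smad4*, the shared partner, at 11.4 to 14.5, both with overlapping groups. On the BMP side, *Smad1* was at 13.2 and 15.9 FPKM in WT and 13.2 and 12.5 in TG, and *Smad5* was at 12.7 and 16.1 in WT and 12.5 and 10.2 in TG, where both TG libraries were lower. *Smad9* was low in every library at 0.708 to 1.49 FPKM, with the widest interval of the group, −0.79 to 0.99.

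The inhibitory SMADs are themselves induced by the pathway and limit it. *Smad7* was at 11.2 and 11.3 FPKM in WT and 10.3 and 10.2 in TG. The libraries of a genotype were almost equal, and the log2 difference of −0.13 had an adjusted p of 0.776 in limma. *Smad6*, the inhibitor of the BMP side, was at 5.54 and 4.77 FPKM in WT and 7.01 and 5.41 in TG, with overlapping groups.

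Among the regulators of SMADs none was called. *Smurf1*, a ubiquitin ligase for BMP-side SMADs, was at 27.8 and 33.8 FPKM in WT and 22.1 and 18.6 in TG. Both TG libraries were lower, with a log2 difference of −0.59 (adjusted p = 0.134 in limma, and 0.0195 in limma voom, which put 4.46% of all genes past 0.05 on the lower side). *Smurf2*, its paralog, was at 16.9 to 20.0 FPKM with overlapping groups. *Skil*, which encodes the SMAD co-repressor SnoN, was at 9.56 and 10.3 FPKM in WT and 10.2 and 5.75 in TG, so that TG 1 lay within the WT range.

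Of the *Id* genes, *Id1* and *Id2* rose, *Id3* was higher in both TG libraries without passing the threshold, and *Id4* overlapped. *Id1* was at 12.3 and 12.5 FPKM in WT and 35.8 and 35.6 in TG, from 118 and 185 reads in WT and 431 and 398 in TG. The 2 libraries of each genotype were nearly identical and the genotypes lay far apart. The mean was 2.87-fold higher in TG, and the log2 fold change was 1.49 (95% interval 1.08 to 1.89) at an adjusted p of 0.00174 in limma. *Id2* was at 1.32 and 3.71 FPKM in WT and 22.0 and 19.8 in TG, from 14 and 61 reads in WT and 295 and 246 in TG. The TG libraries lay far above both WT libraries, which themselves differed. The mean was 2.51 ± 1.69 FPKM in WT and 20.9 ± 1.58 in TG (SD, n = 2), 8.32-fold higher, with a log2 fold change of 2.95 (95% interval 2.19 to 3.71) and an adjusted p of 0.0013 in limma.

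The differences of both *Id* genes kept their direction under every alternative, and some alternatives ended a call. Without WT 1, which had the lowest *Id2* value, the log2 fold change of *Id2* was 2.34 with an adjusted p of 0.0249 in limma. *Id1* lost its call without WT 1 (0.038) and without WT 2 (0.0446), at log2 fold changes of 1.48 and 1.50. Both also lost it with all genes above 0 in the fit (0.0359 for *Id1* and 0.0708 for *Id2*) and without a variance trend (0.0218 for each). Over the 15 alternatives the adjusted p ranged from 5.39e-04 to 0.0446 for *Id1* and from 1.24e-04 to 0.0708 for *Id2*.

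*Id3*, the most abundant *Id* gene, was at 53.2 and 33.8 FPKM in WT and 68.3 and 77.5 in TG. Both TG libraries were higher, but the WT libraries lay apart, and the log2 difference of 0.77 had an adjusted p of 0.0869 in limma (0.0401 in limma voom, which put 3.63% of all genes past 0.05 on the higher side). *Id4* was at 2.13 and 1.34 FPKM in WT and 1.47 and 1.56 in TG, inside the WT range. Summed over the 4 genes, *Id* transcripts were at 69.0 and 51.4 FPKM in WT and 128 and 134 in TG. The order in WT was *Id3*, *Id1*, then *Id2* and *Id4*, which overlapped, and in TG all 4 stood apart in the order *Id3*, *Id1*, *Id2*, *Id4*.

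**Figure D4:**
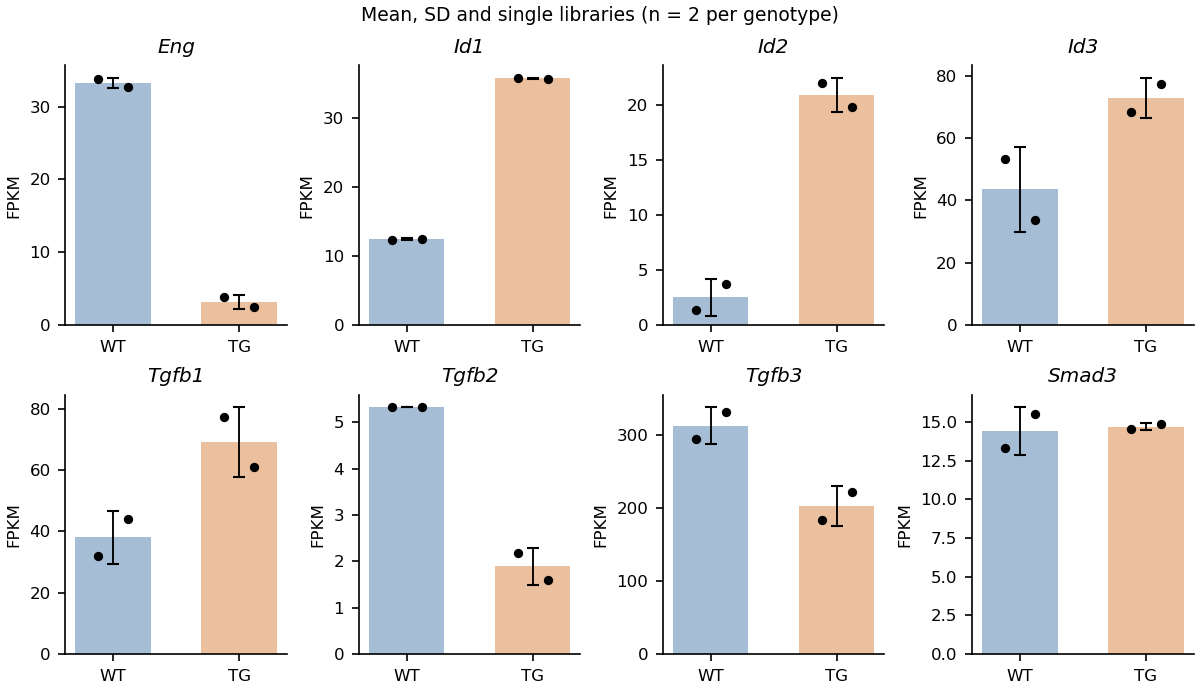
Mean FPKM of each genotype (bars from 0) with SD (n = 2) and the single libraries (points) for *Eng*, *Id1*, *Id2*, *Id3*, the 3 TGF-β ligands and *Smad3*, each with its own axis. *Eng* drops from 33.2 to 3.15 FPKM, *Id1* and *Id2* stand at 35.7 and 20.9 FPKM in TG, and the *Smad3* bars are level at 14.4 and 14.7.

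*Id1* lies on Chr 2 (152736251 to 152737410) and *Id2* on Chr 12 (25093799 to 25096092). The 2 tested genes on each side of *Id1* (*H13*, *Mcts2*, *Bcl2l1* and *Tpx2*) had log2 fold changes of 0.09 to 0.37. Those around *Id2* were *Mboat2* at 0.01, *Kidins220* at −0.07, *Rnf144a* at 0.36 and *Sox11* at −0.77, and none of these 8 genes was called. On Chr 2, which also carries *Eng*, *Acvr1*, *Acvr2a*, *Grem1*, *Bmp2* and *Gdf5*, 5 members were tested, with log2 fold changes from −3.23 (*Eng*) to 1.49 (*Id1*). On Chr 1, *Tgfb2* and *Inhbb* were lower in both TG libraries, as were 20.3% of all tested genes, and *Bmpr2* overlapped. The tested neighbours of *Tgfb2*, named after its values were seen, had log2 fold changes of −0.09 (*Eprs*), 0.07 (*Lyplal1*), 0.01 (*Rrp15*) and 0.03 (*Gpatch2*).

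The genes whose pattern over the 4 libraries was most like that of a called member were found by the Euclidean distance of their centered log2 values. The nearest to *Eng* were *Itga11* at a distance of 0.459, *Thbs2* at 0.579, *2310010J17Rik* at 0.613, *Pmp2* at 0.749 and *Gpc3* at 0.819. *Thbs2*, which encodes the matrix protein thrombospondin 2, was at 65.5 and 65.6 FPKM in WT and 5.88 and 7.27 in TG. The nearest to *Id1* were *Ccbe1*, *Metrnl*, *Cd34*, *Prkar1b* and *H1f2*, at distances of 0.0809 to 0.153. The nearest to *Id2* were *Cyp1b1*, *Nrn1*, *Krt18*, *Dynap* and *Hsf4*, at 0.420 to 0.599. With 4 libraries, such nearness is a description of these libraries.

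The remaining genes of the pathway were listed by role, and 50 of them were tested apart from target genes. None was called, 10 had an unadjusted p under 0.05 on the lower side (6.88% of all genes) and 6 on the higher side (12.7% of all genes, near the share here), and 3 passed an adjusted p of 0.05, all lower (1.54% of all genes). *Ski*, a co-repressor of SMADs, was at 39.6 and 44.2 FPKM in WT and 23.4 and 23.7 in TG, with a log2 difference of −0.82 (adjusted p = 0.0315 in limma). *Fbn1*, fibrillin-1 of the microfibrils to which latent complexes bind, was at 59.6 and 58.5 FPKM in WT and 33.6 and 36.8 in TG (−0.74, adjusted p = 0.0418 in limma). *Pmepa1*, a membrane protein that restrains TGF-β signaling and is also a target of it, was at 159 and 181 FPKM in WT and 105 and 101 in TG (−0.72, adjusted p = 0.0452 in limma). For each of the 3, both TG libraries lay together below WT. *Thbs1*, an activator of latent TGF-β, was at 794 and 837 FPKM in WT and 499 and 495 in TG (−0.71, adjusted p = 0.0534 in limma), and *Crebbp*, a SMAD co-activator, at 17.1 and 22.1 against 8.71 and 13.6 (adjusted p = 0.104 in limma).

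The further receptors and antagonists gave values on both sides. *Bambi*, a decoy receptor, was at 2.16 and 1.91 FPKM in WT and 3.29 and 4.40 in TG (0.77, adjusted p = 0.172 in limma), and *Tgfbr3l*, a betaglycan-like gene, had 0.78. *Cd109*, a TGF-β co-receptor that limits signaling, was at 14.0 and 16.0 FPKM in WT and 10.3 and 8.73 in TG (−0.63, adjusted p = 0.126 in limma). Of the antagonists, *Vasn* had a log2 fold change of 0.67 and *Bmper* 0.56, and *Lrrc32*, which displays latent TGF-β on the cell surface, had 0.66. Only 3 of 21 genes listed as further ligands were tested, *Inha* at −0.48, *Bmp1* at −0.45 and *Gdf11* at −0.12. Of these, *Bmp1* encodes a protease and not a ligand of this family.

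The classical TGF-β target genes listed here were mostly lower in TG. Like the other lists, this one was written with earlier results of these data known. Its shares beside those of all genes are therefore a description and not an independent test. Of 25 listed, 24 were tested, 4 were called lower and none higher, against 0.469% and 0.607% of all genes. In limma 16 had an unadjusted p under 0.05 on the lower side (6.88% of all genes) and 2 on the higher side (12.7%). Limma voom called 5 lower (1.34% of all genes) and 1 higher (1.08%). Both TG libraries lay below both WT libraries in 17 of the 24 (70.8%, against 20.3% of all genes). They lay above in 3 (12.5%, against 30.2%), and the median log2 fold change was −0.67. *Itga11*, the collagen-binding integrin subunit α11, was at 28.1 and 30.8 FPKM in WT and 3.66 and 3.34 in TG, −2.90 on the log2 scale (adjusted p = 7.84e-05 in limma). *Cnn1*, the actin-binding protein calponin 1, was at 700.3 and 661 FPKM in WT and 168 and 232 in TG (−1.78, adjusted p = 0.00114 in limma). *Postn*, the matrix protein periostin, was at 82.4 and 90.5 FPKM in WT and 28.2 and 27.0 in TG (−1.63, adjusted p = 8.55e-04 in limma). For *Itga11* and *Postn* the libraries of a genotype lay close together, while the TG libraries of *Cnn1* lay apart. The genotypes lay far apart for each of the 3. *Ccn2*, connective tissue growth factor, was at 605 and 590 FPKM in WT and 259 and 252 in TG (−1.22, adjusted p = 0.00435 in limma).

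Calls over all tested genes depended on the WT libraries and on the settings of the fit. The 54 lower calls became 1 with all genes above 0 fitted and 6 without a variance trend. The 4 target calls depended on the same libraries and settings. All 4 were lost at an adjusted p of 0.01 without WT 1 (0.0203 to 0.0512) and without WT 2 (0.0175 to 0.0655), and *Ccn2* also without TG 1 (0.0215) or TG 2 (0.0221), with log2 fold changes that kept their direction. With all 4 libraries none of the 4 was called when all genes above 0 were fitted (0.0176 to 0.0585), and without a variance trend *Itga11* alone was. Going the other way, *Timp1*, an inhibitor of matrix metalloproteinases named after its values were seen, was at 201 and 231 FPKM in WT and 574 and 379 in TG (1.11, adjusted p = 0.0202 in limma). *Acta2*, *Tagln* and *Cnn1* are also smooth muscle markers, and *Col1a1*, *Col1a2* and *Col3a1* are also in the fibroblast list. The smooth muscle and pericyte sum is thus largely that of 3 genes of this list. Without them the other 8 markers summed to 66.3 and 52.7 FPKM in WT and 30.6 and 32.5 in TG, most of it *Mcam* and *Cspg4*, and their part in the result was not tested.

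BMP target genes other than *Id* genes did not move in 1 direction. Of 15 listed, 10 were tested and none was called in limma, with an unadjusted p under 0.05 for 4 on the lower side (6.88% of all genes) and 2 on the higher side (12.7%), and the median log2 fold change was 0.07. *Atoh8*, a bHLH transcription factor, was at 0.862 and 2.14 FPKM in WT and 10.2 and 5.45 in TG. The TG libraries were both above WT, with a log2 difference of 2.08 (adjusted p = 0.0150 in limma), and it was called in limma voom (0.00298) and without TG 2 (0.00559). *Dlx5*, a homeobox gene of bone and limb, was at 1.26 and 0.704 FPKM in WT and 0.0665 and 0 in TG (adjusted p = 0.127 in limma). *Hey2*, a transcriptional repressor shared with the Notch pathway, was at 1.55 and 0.917 FPKM in WT and 0.387 and 0.379 in TG (adjusted p = 0.243 in limma).

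**Figure D5:**
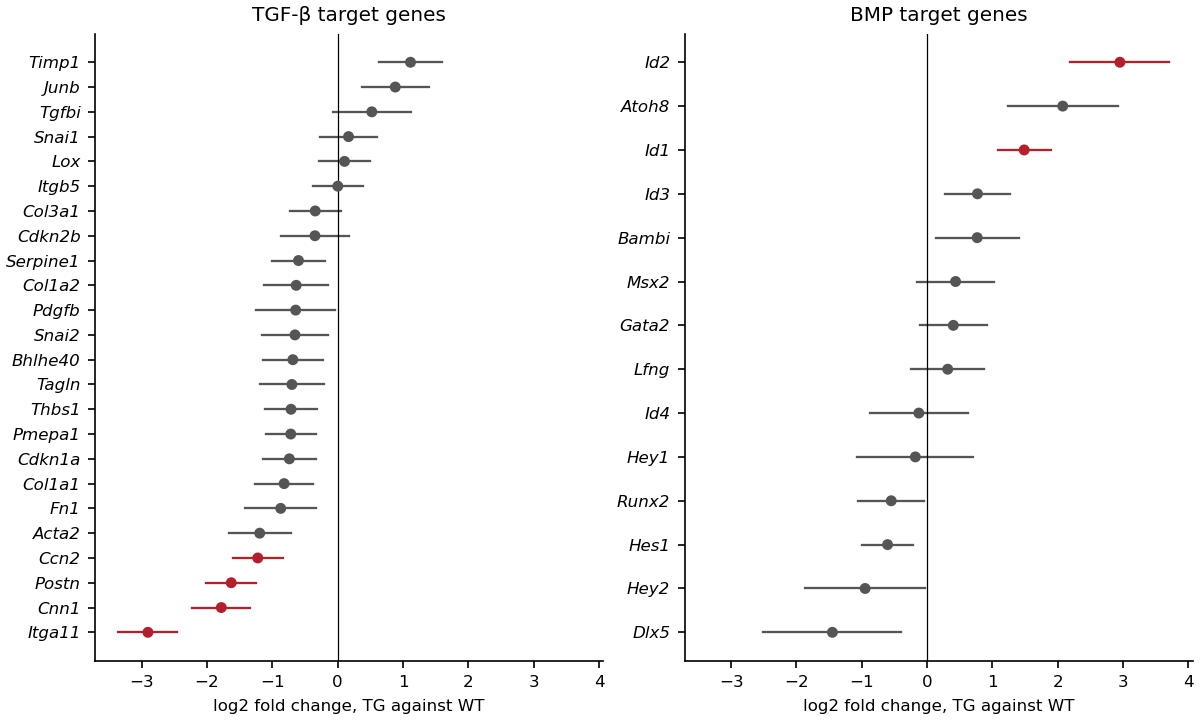
Log2 fold change of TG against WT with its 95% interval for the 24 tested TGF-β target genes (left) and for 10 BMP target genes with the 4 *Id* genes (right), where red marks called genes. On the left 18 of the 24 points lie below 0, down to *Itga11* at −2.90, and on the right *Id2* (2.95), *Atoh8* (2.08) and *Id1* (1.49) lead a spread that reaches *Dlx5* at −1.45.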

How the data were processed

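The authors used Rsubread to align the paired-end reads (strand-specific, random-primed libraries) on mm10, assigned them to genes with featureCounts and turned the counts into FPKM with an R package. The authors ran DESeq for their own comparison. The deposited matrix holds FPKM for 4 libraries, which were grouped by the genotype on their labels. Members were taken by symbol. The members and all gene lists were chosen with earlier results of these data known.

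TG was compared with WT in limma 3.58.1 (R 4.3.3, eBayes moderation that lets the variance follow the mean) on log2(FPKM + 0.5) over 11524 genes with a mean of at least 0.5 FPKM, all 4 libraries and no covariate, with Benjamini-Hochberg adjustment over all of them. The study's own thresholds were kept: adjusted p under 0.01, and 1 or more in size for the log2 fold change. Whole reads were worked out from the ratios of FPKM values between libraries for all 15530 genes with a value above 0, and for 719 of them the exonic length fixed a shared multiple. They held 99.47% to 99.61% of the library totals and were tested with limma voom and median-ratio size factors. Scripts were tested on simulated data and used Python 3.11.15, numpy 2.4.6, pandas 2.3.3 and scipy 1.17.1. Percent reductions and folds are from mean FPKM, and intervals from reads cover counting error only.

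The genes named are all members, *Xist*, every called gene and the 3 largest differences of each further list, the 2 nearest tested genes on each side of a called member, the 5 genes most like it, and defining markers. A gene outside this rule is marked as picked with its values known, and 1 gene within it is not reported here. Sequences and positions are from RefSeq and GRCm38. *Eng*, *Bmp4*, *Bmp6*, *Acvr2a*, *Fstl3*, *Chrd*, *Ltbp2*, *Ltbp3* and *Id4* share exonic bases with another gene of the matrix on the opposite strand. The alternatives were other pseudocounts, filters, scalings and thresholds, no variance trend, a replicate block, limma voom, and leaving out each library.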

Additional observations from a re-analysis of the deposited data

How the results depend on the processing

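Of the 3 called members, *Eng* lost its call in 3 of the 15 alternatives, *Id1* in 5 and *Id2* in 4. Members called lower numbered 1, and 0 with all genes above 0 in the fit, 2 in limma voom, 2 at an adjusted p under 0.05 and 0 to 1 without single libraries. Members called higher numbered 2, and 0 with all genes above 0, 0 without a variance trend and 0 to 2 without single libraries. Over all tested genes the 54 lower and 70 higher calls became 1 and 0 with all genes above 0 (222 and 429 at an unadjusted p under 0.05), 154 and 125 in limma voom, 6 and 3 without a variance trend, 121 and 229 at an adjusted p under 0.05, and 1 to 47 and 0 to 66 without single libraries, the fewest without WT 1. The 4 further pathway and target genes called lower became 0 with all genes above 0, 1 without a variance trend and 0 to 3 without single libraries. Those called higher went from 0 to 2 in limma voom, to 2 at an adjusted p under 0.05, and to 0 to 2 without single libraries, where the 2 came without TG 2. The cause of these differences was not tested. The counts in this paragraph at an adjusted p under 0.05 keep the limit of 1 on the size of the log2 fold change. Without that limit 178 genes were lower and 298 higher. A lone library was assumed to vary like those of the other genotype.

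Libraries with the same number did not deviate together over all genes (correlation of deviations −0.0276). The labels do not say if they share more than the number, and this correlation cannot settle it. With the number as a replicate block, 8 genes were called lower and 12 higher, 0 members were called higher (2 at an unadjusted p under 0.05) and 1 further gene was called lower. *Id1* and *Id2* then had adjusted p-values of 0.0211 and 0.0162 in limma.

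Over 62 named genes, 851 of the values under an alternative kept direction and side of the threshold, 32 lost a call and 5 gained one. In 16 genes, none of them called and the largest at 0.35 in size, the sign of the log2 fold change turned under some alternative. In limma voom these were *Gdf6* (−0.0245), *Tgfbr2* (−0.0488), *Bmpr2* (−0.0852), *Smad2* (−0.0117) and *Smad3* (−0.0438). After quantile normalization they were *Gdf6* (−0.0661), *Tgfbr2* (−0.0351), *Acvr1b* (−0.0129), *Bmpr2* (−0.0673) and *Smad3* (−0.0354). After upper-quartile scaling they were *Tgfbr2* (−0.0387), *Bmpr2* (−0.0604) and *Smad3* (−0.0347), and with a pseudocount of 1 *Bmpr2* (−1.67e-04). Without single libraries the sign turned in *Gdf6* (−0.31 to 0.52), *Tgfbr1* (−0.25 to 0.0924), *Tgfbr2* (−0.14 to 0.20), *Acvrl1* (−0.74 to 0.0927), *Acvr1* (−0.28 to 0.0324), *Acvr1b* (−0.18 to 0.37), *Bmpr2* (−0.26 to 0.26), *Ltbp1* (−0.22 to 0.0695), *Smad2* (−0.0866 to 0.22), *Smad3* (−0.0767 to 0.14), *Smad4* (−0.25 to 0.0369), *Smad9* (−0.26 to 0.46), *Smurf2* (−0.15 to 0.0931), *Skil* (−0.74 to 0.0389), *Id4* (−0.38 to 0.13) and *Gdf11* (−0.40 to 0.15). Scalings moved the median of all genes by less than 0.1.

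With 2 libraries of each genotype and 9465712 to 14639946 reads, genes with few reads such as *Nog*, *Acvrl1* and the BMP ligands could not be compared closely.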

Other observations

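The partners of Id proteins were looked at after the values of the *Id* genes had been seen. Id proteins bind the E proteins, bHLH transcription factors encoded by *Tcf3*, *Tcf4* and *Tcf12*, and thereby keep them from DNA. *Tcf3* was at 79.1 and 73.9 FPKM in WT and 91.3 and 74.7 in TG, and *Tcf12* was at 25.9 and 36.9 in WT and 26.9 and 22.6 in TG, with overlapping groups in both. *Tcf4* was at 13.5 and 14.5 FPKM in WT and 21.3 and 19.1 in TG, a log2 difference of 0.51 (adjusted p = 0.174 in limma). Of the mesenchymal bHLH factors, *Twist1* was at 18.2 and 16.1 FPKM in WT and 25.9 and 24.4 in TG (0.54, adjusted p = 0.144 in limma). *Twist2* was at 34.7 and 30.5 FPKM in WT and 57.8 and 54.3 in TG (0.78, adjusted p = 0.0372 in limma). *Tcf4* and both *Twist* genes were higher in the 2 TG libraries than in either WT library, as were 30.2% of all tested genes. None of the 5 genes was called.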
